A study of Danio rerio with 17 samples.

Results

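Amino acid transporter genes were taken as every gene of the zebrafish tables whose symbol places it in the solute carrier families SLC1, SLC3, SLC6, SLC7, SLC36, SLC38 or SLC43, with 1 row per gene identifier. The rule used names and no measured value, and it found 80 members among 35117 gene identifiers. By this rule 73 members had at least 1 count in some library, and 38 of those passed the filter on low counts and were tested. The other 35 counted members were too sparse to test, and 7 members had 0 counts in every library. Those 7 were slc38a8a, slc6a19a.1, slc6a19a.2, slc6a19b, slc6a22.2, slc6a3 and slc7a9. Family membership is not the same as amino acid transport. SLC6 also holds creatine, taurine and monoamine carriers, mammalian SLC43A3 carries purine nucleobases, and slc7a6os, which is adjacent to slc7a6, does not encode a transporter.

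Cells take up and release amino acids through carriers that differ in the amino acids they accept and in whether sodium, protons or an exchanged amino acid drives transport. A particular arrangement is the heteromeric transporter, in which a glycoprotein heavy chain of the SLC3 family (SLC3A2 is CD98) brings a transporting light chain of the SLC7 family to the cell surface. Carriers of the SLC38 and SLC36 families also act at the lysosome, where amino acids released by protein breakdown re-enter the cytosol, a path of weight in phagocytes. In mammals SLC7A7, the y+LAT1 light chain that exchanges cationic for neutral amino acids, is abundant in monocytes and macrophages.

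RNA was measured in 17 libraries of manually picked cells from adult zebrafish epidermis, in 5 groups. The MLCs (4 libraries), which the series describes as mpeg1-positive cells restricted to the tissue, and the cLCs (4 libraries) came from fish carrying both transgenes of the line Tg(hsp70:mCherry-T2a-CreERT2 and mpeg1:loxP-DsRedx-loxP-GFP), in which the mpeg1 promoter drives the fluorescent reporter. T cells (3 libraries) came from Tg(lck:DsRedx) fish, neutrophils (3 libraries) from Tg(lyz:GFP) fish and keratinocytes (3 libraries) from Tg(krt4:lyn-GFP) fish. The abbreviations MLC and cLC are used as labels, and the number of cells behind each library was not given in the sources used here. The libraries of a group came from separate experiments, per the series text. Cell type and transgenic line cannot be told apart except between MLCs and cLCs, which share a line.

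The libraries held 5837662 to 24596883 counts each and between 4484 and 16921 detected genes. The gene ENSDARG00000080337 had the most counts in every library except Neutrophils 1. Its share of counts was 12.4% to 32.7% in MLCs, 7.18% to 19.0% in cLCs and 4.94% to 26.1% in keratinocytes. In T cells its share was 6.05% to 13.7%, and in Neutrophils 2 and Neutrophils 3 it was 7.52% and 16.6%. How far this gene moved the levels of other genes between groups was not tested. A set of 4 libraries stood apart by detecting fewer than 6000 genes, namely cLCs 3, cLCs 4, Neutrophils 2 and Neutrophils 3. Without them Neutrophils 1 is the only neutrophil library, so no test result without all 4 is given. The reporter genes matched the labels. The level of mpeg1.1 was 467 to 869 TPM (a transcript level scaled by gene length and by library) in MLCs and 1645 to 3914 TPM in cLCs. In MLCs the leukocyte marker ptprc reached at most 0.133 TPM and the macrophage marker csf1ra was at 0 in all 4 libraries, although the other leukocyte markers were present. The summed level of 16 keratinocyte markers was 2376 to 4479 TPM in MLCs and 2.93 to 79.2 TPM in cLCs, against 21397 to 72824 TPM in keratinocytes, and 2 of the 16 were at 0 in every MLC library. The reporter gene krt4, among the 16, was at 14.9 to 269 TPM in MLCs, against 5254 to 31581 TPM in keratinocytes. The marker cdh1, also among them, was at 232 to 449 TPM in MLCs, overlapping with keratinocytes at 286 to 432 TPM. The other keratinocyte markers are not given singly. The summed level of 10 T cell markers was 474 to 1457 TPM in cLCs, against 2004 to 3215 TPM in T cells. Of the 10, 3 were at 0 in every cLC library. The reporter gene lck, which is among the 10, was at most 13.5 TPM in cLCs and 695 to 731 TPM in T cells. The summed level of 7 neutrophil markers was 660 to 1501 TPM in MLCs, up to 555 TPM in cLCs and up to 619 TPM in T cells, against 29225 to 45712 TPM in neutrophils. None of the 7 was at 0 throughout the MLCs. The reporter gene lyz, which is among the 7, was at most 1.03 TPM in MLCs, 0 TPM in cLCs and at most 78.6 TPM in T cells. In neutrophils lyz was at 4480 to 8361 TPM. The summed level of 9 macrophage and Langerhans markers was 953 to 1780 TPM in MLCs, 8577 to 21894 TPM in cLCs and 1362 to 1515 TPM in neutrophils, where 6 of the 9 were at 0 throughout. Their part in the transporter results was not tested.

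The number of members found went with the number of genes a library detected. Between 22 and 43 members had a count in MLC libraries and between 11 and 46 in cLC libraries, compared with 17 to 27 in keratinocytes, 26 to 47 in T cells and 11 to 23 in neutrophils. The 4 libraries with fewer than 6000 genes detected 11 to 15 members. A zero in these libraries therefore has less weight than a zero in a library that detected many genes. The number of cells behind a library was not given, and fewer cells that express a gene and less RNA per cell cannot be told apart.

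**Figure D1:**
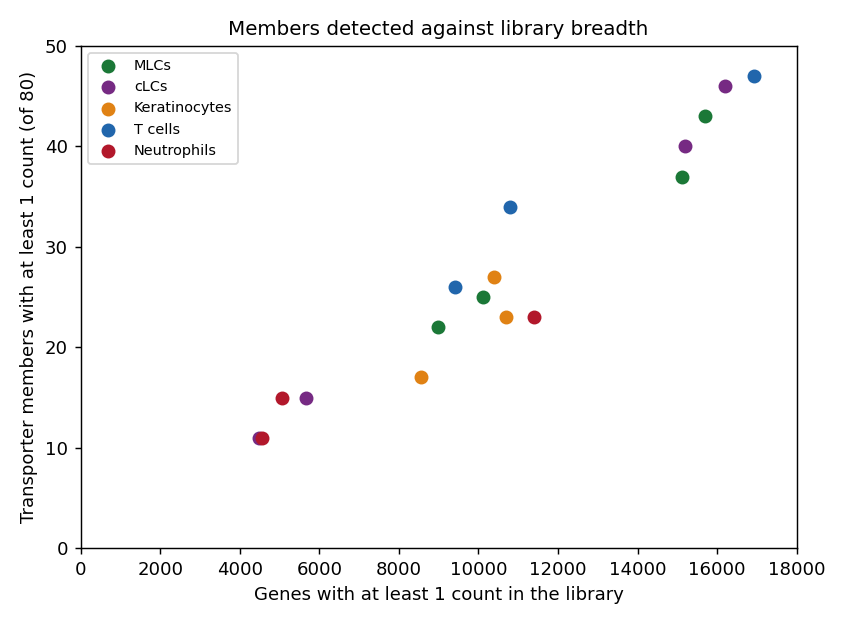
Number of transporter family members with at least 1 count (vertical axis, of 80) against the number of genes with at least 1 count (horizontal axis) in each library, 1 point per library, coloured by group. The 4 points at the lower left, 2 cLC and 2 neutrophil libraries, detected 11 to 15 members, and the library with the most members, T cells 1, detected 47.

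The summed level of all members was 427 to 800 TPM in MLCs and 450 to 2324 TPM in cLCs. It was 1227 to 1278 TPM in T cells, 378 to 828 TPM in neutrophils and 248 to 736 TPM in keratinocytes. Of the 73 counted members, 7 had their highest group mean in MLCs, 20 in cLCs, 27 in T cells, 7 in neutrophils and 12 in keratinocytes. Among the 38 tested members these numbers were 2 for MLCs, 9 for cLCs, 17 for T cells, 4 for neutrophils and 6 for keratinocytes. Some untested members were placed by 1 count in 1 library, as slc7a1, slc43a1b, slc6a4b and slc43a3a were. The same split over all genes was not computed, so these numbers have no background beside them.

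Of the 38 tested members, 8 differed among the 5 groups in edgeR's quasi-likelihood test (Benjamini-Hochberg adjusted p under 0.05), a share of 21.1%, beside 16.0% of all 15247 tested genes. They were slc7a7, slc3a2a, slc6a14, slc43a2a, slc43a2b, slc43a3b, slc7a11 and slc38a7. Of the 8, 6 had their highest group mean in cLCs, and the exceptions were slc6a14 in T cells and slc7a11 in neutrophils. How all called genes divide by highest group was not computed. In 7 of the 38 members (18.4%) every library of 1 group lay above every other library in TPM, beside 15.9% of all tested genes, so this share was near the background. These were slc7a7, slc3a2a and slc38a7 in cLCs, slc6a14 and slc7a6 in T cells, slc38a5b in keratinocytes and slc7a3a in neutrophils.

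**Figure D2:**
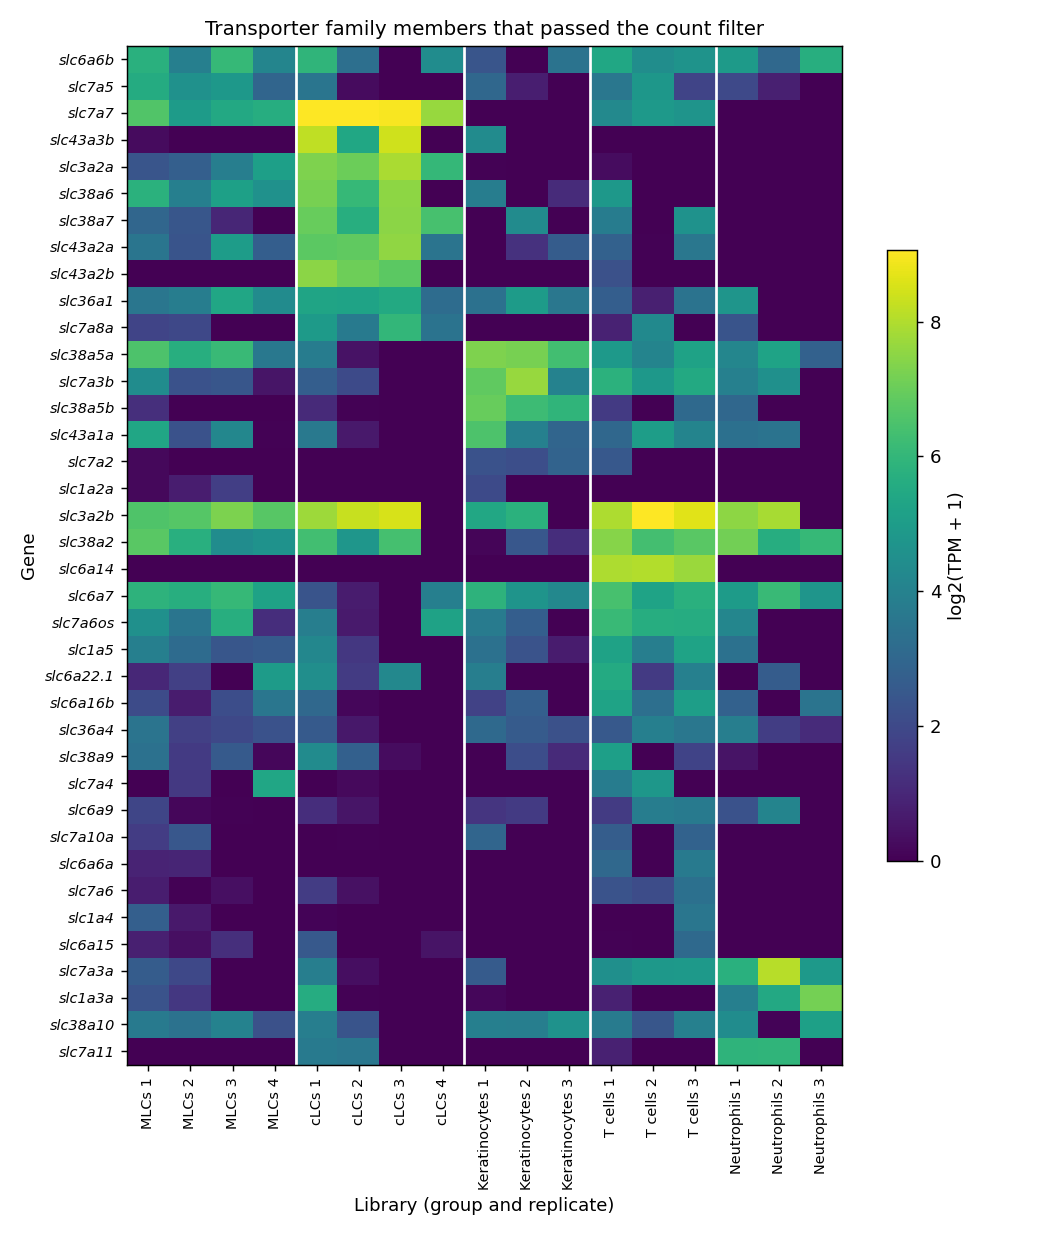
Level of the 38 tested members (rows, grouped by the cell type with the highest mean) in each of the 17 libraries (columns), as log2(TPM + 1) on a colour scale. White lines separate the groups. The slc7a7 row is bright in all 4 cLC libraries (202 to 535 TPM) and dark in the keratinocyte and neutrophil columns, where it was at 0.

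The heavy chain of the surface heteromers is encoded by a pair of zebrafish genes, slc3a2a (ENSDARG00000036427) and slc3a2b (ENSDARG00000037012), and the groups differed in the slc3a2a copy. Its level was 4.21, 5.67, 13.5 and 33.7 TPM in the 4 MLC libraries and 156, 131, 240 and 63.9 TPM in the 4 cLC libraries. It was 0.0475, 0 and 0 TPM in keratinocytes, 0.232, 0 and 0 TPM in T cells and 0 TPM in all 3 neutrophil libraries. Both mpeg1-reporter groups therefore lay above every library of the other 3 groups. The adjusted p among the 5 groups was 0.000255 by edgeR.

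The level of slc3a2b was 94.3, 102, 155 and 105 TPM in MLCs and 215, 315, 369 and 0 TPM in cLCs. It was 249, 534 and 406 TPM in T cells, 181, 233 and 0 TPM in neutrophils and 42.8, 53.9 and 0 TPM in keratinocytes. Every group overlapped with at least 1 other group, and the 5-group difference did not pass the test (edgeR adjusted p = 0.913). As a share of heavy chain TPM, slc3a2a made up 4.27% to 24.3% in MLCs and 29.4% to 100% in cLCs, where the 100% belonged to cLCs 4, in which slc3a2b was at 0. The share was at most 0.0931% in T cells and at most 0.111% in keratinocytes. How reads shared between the copies were counted was not given in the sources used here.

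Among the light chains, slc7a7 (ENSDARG00000055226) showed the clearest pattern. Its level was 97.4, 30.1, 43.8 and 49.1 TPM in MLCs and 535, 535, 509 and 202 TPM in cLCs. It was 18.3, 28.7 and 24.9 TPM in T cells and 0 TPM in all 3 keratinocyte and all 3 neutrophil libraries. The cLC, MLC and T cell libraries formed 3 ranges that did not overlap. The adjusted p among the 5 groups was 4.12e-05 by edgeR, the lowest of any member. The call held in all 17 fits that left out 1 library, and with DESeq2 and limma. The neighbouring steps of that order did not pass the test, with an edgeR adjusted p of 0.266 for MLCs against cLCs (log2 fold change -3.08, SE 1.07) and 0.464 for MLCs against T cells (1.99, SE 1.14).

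In all 11 libraries of MLCs, cLCs and T cells, slc7a7 was the most abundant of the light chain genes. It accounted for 46.1% to 87.9% of light chain TPM in MLCs, 89.1% to 95.8% in cLCs and 36.8% to 58.0% in T cells. In keratinocytes 1 and 2 the most abundant light chain was slc7a5, which encodes the LAT1 chain for large neutral amino acids, at 7.12 and 0.706 TPM. The light chain slc7a10a was close behind in keratinocytes 1, at 6.76 TPM, and the slc7a5 value in keratinocytes 2 rested on 7 counts. Keratinocytes 3 and Neutrophils 3 had no count for any light chain or for slc3a2a and slc3a2b.

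**Figure D3:**
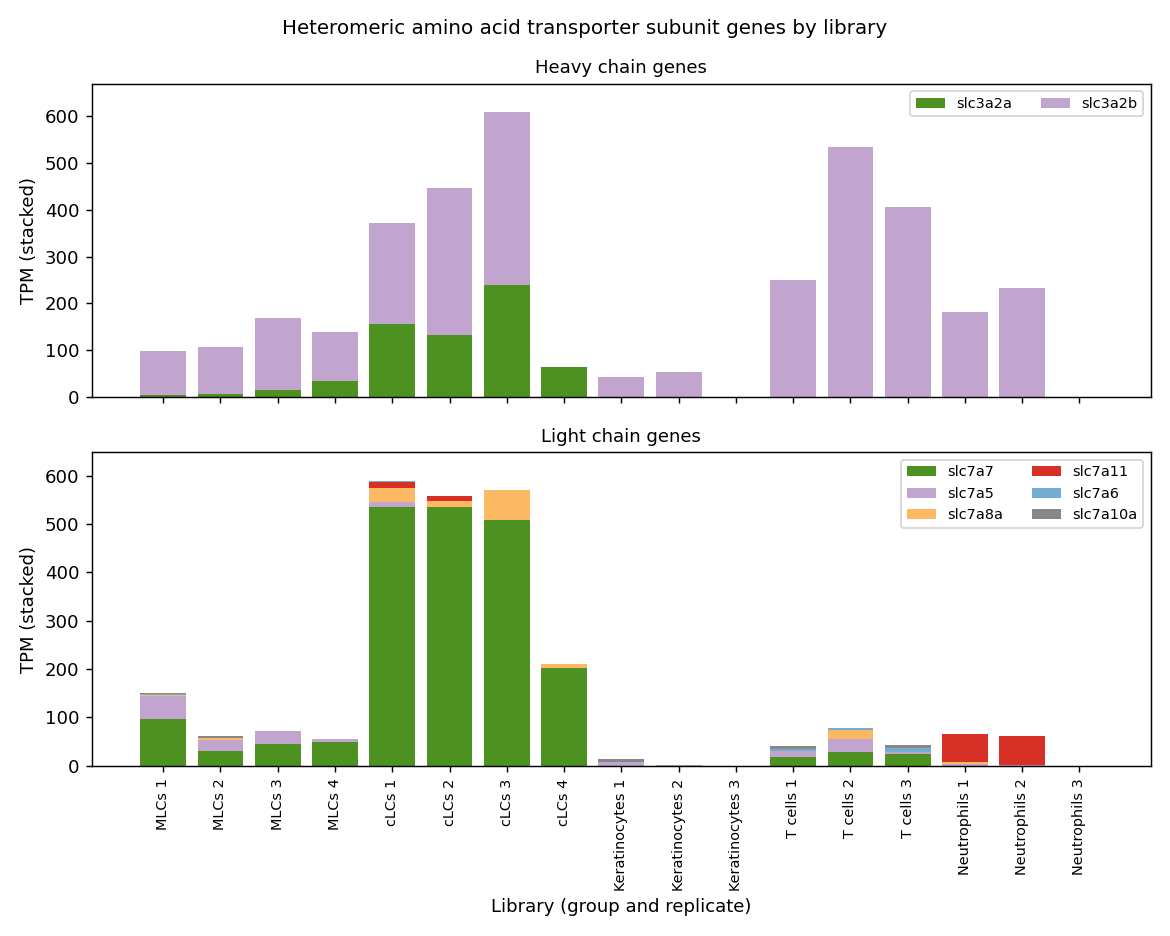
Stacked TPM of the heavy chain genes slc3a2a and slc3a2b (upper panel) and of 6 light chain genes (lower panel) in each library; slc7a8b and slc7a10b, at most 2.36 TPM, are left out. The slc3a2a segment is visible in MLC and cLC libraries only, and slc7a7 makes up most of every cLC bar in the lower panel.

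The cystine and glutamate exchanger chain slc7a11 (xCT in mammals, which supplies cystine for glutathione) was found mainly in neutrophils. Its level was 0 TPM in all MLC libraries and 11.8, 11.03, 0 and 0 TPM in cLCs. It was 0.770, 0 and 0 TPM in T cells, 57.9, 60.7 and 0 TPM in neutrophils and 0 TPM in all keratinocyte libraries. The third neutrophil library and both cLC libraries at 0 were among the 4 with fewer than 6000 genes. The 5-group difference passed edgeR's test at an adjusted p of 0.0389. It did not pass when any 1 of 8 libraries was left out (MLCs 1 to 4, cLCs 1, cLCs 2, Neutrophils 1 or Neutrophils 2), with adjusted p between 0.0539 and 0.0697. DESeq2 gave 0.0966, and limma gave 0.0726 with a pseudocount of 1 and 0.129 with a pseudocount of 0.1.

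The level of slc7a5 was 47.3, 23.3, 27.7 and 6.73 TPM in MLCs and 10.6, 0.202, 0 and 0 TPM in cLCs. It was 11.1, 27.1 and 2.64 TPM in T cells and at most 3.03 TPM in neutrophils and 7.12 TPM in keratinocytes. MLCs had the highest mean, yet their range overlapped with those of cLCs, T cells and keratinocytes and the 5-group test was not passed (edgeR adjusted p = 0.604). The LAT2 chain slc7a8a was at most 2.92 TPM in MLCs and at 30.0, 11.9, 62.4 and 9.98 TPM in cLCs, with at most 18.8 TPM in T cells, 4.09 TPM in neutrophils and 0 TPM in keratinocytes (edgeR adjusted p = 0.123). The y+LAT2 chain slc7a6 reached 4.04, 3.31 and 9.11 TPM in T cells and at most 2.05 TPM elsewhere.

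Carriers of the cationic amino acids arginine and lysine that work without a heavy chain (the CAT branch of SLC7) were spread differently from slc7a7. The level of slc7a3a was at most 5.30 TPM in MLCs and 13.8 TPM in cLCs. It was 21.8, 27.5 and 28.8 TPM in T cells, 53.1, 272 and 29.1 TPM in neutrophils and at most 5.14 TPM in keratinocytes. All neutrophil libraries lay above all others, narrowly above T cells 3, and the 5-group test was not passed (edgeR adjusted p = 0.306). Its paralogue slc7a3b was at most 20.1 TPM in MLCs and 5.48 TPM in cLCs. It was at 55.1, 27.3 and 44.96 TPM in T cells, at most 22.6 TPM in neutrophils and at 114, 201 and 15.1 TPM in keratinocytes.

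Of the other CAT genes, slc7a2 was at 0.144 TPM in MLCs 1, 4.64 TPM in T cells 1 and 3.93, 3.56 and 6.35 TPM in keratinocytes. It was at 0 in the other 12 libraries. It did not pass the 5-group test (edgeR adjusted p = 0.0649).

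The SLC43 family holds LAT3 and LAT4, facilitative carriers of branched-chain and aromatic amino acids. Among its 6 zebrafish members, 3 had their highest levels in cLCs and passed the 5-group test. The LAT4 gene slc43a2a (ENSDARG00000036848) was at 10.5, 4.07, 31.2 and 5.53 TPM in MLCs and 110, 115, 189 and 10.2 TPM in cLCs. It was at 6.05, 0.0250 and 10.96 TPM in T cells, 0 TPM in all neutrophil libraries and 0, 1.48 and 5.29 TPM in keratinocytes. The edgeR adjusted p among the 5 groups was 0.00548. The cLC range overlapped with those of MLCs and T cells through cLCs 4 alone.

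Its paralogue slc43a2b (ENSDARG00000061120) was at 0 TPM in all 4 MLC libraries and at 177, 134, 109 and 0 TPM in cLCs. It was at 3.72 TPM in T cells 1 and at 0 TPM in the other 8 libraries (edgeR adjusted p = 0.00403 among the 5 groups). The related slc43a3b (ENSDARG00000057949) was at 0.207 TPM in MLCs 1, 296, 41.7, 337 and 0 TPM in cLCs and 19.98 TPM in keratinocytes 1, and at 0 TPM elsewhere (edgeR adjusted p = 0.00548). In both genes cLCs 4, the library with the fewest detected genes, was at 0. The LAT3 gene slc43a1a had another pattern, at 40.2, 3.84, 17.2 and 0.0349 TPM in MLCs against 91.9, 14.3 and 6.75 TPM in keratinocytes, with overlapping ranges.

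**Figure D4:**
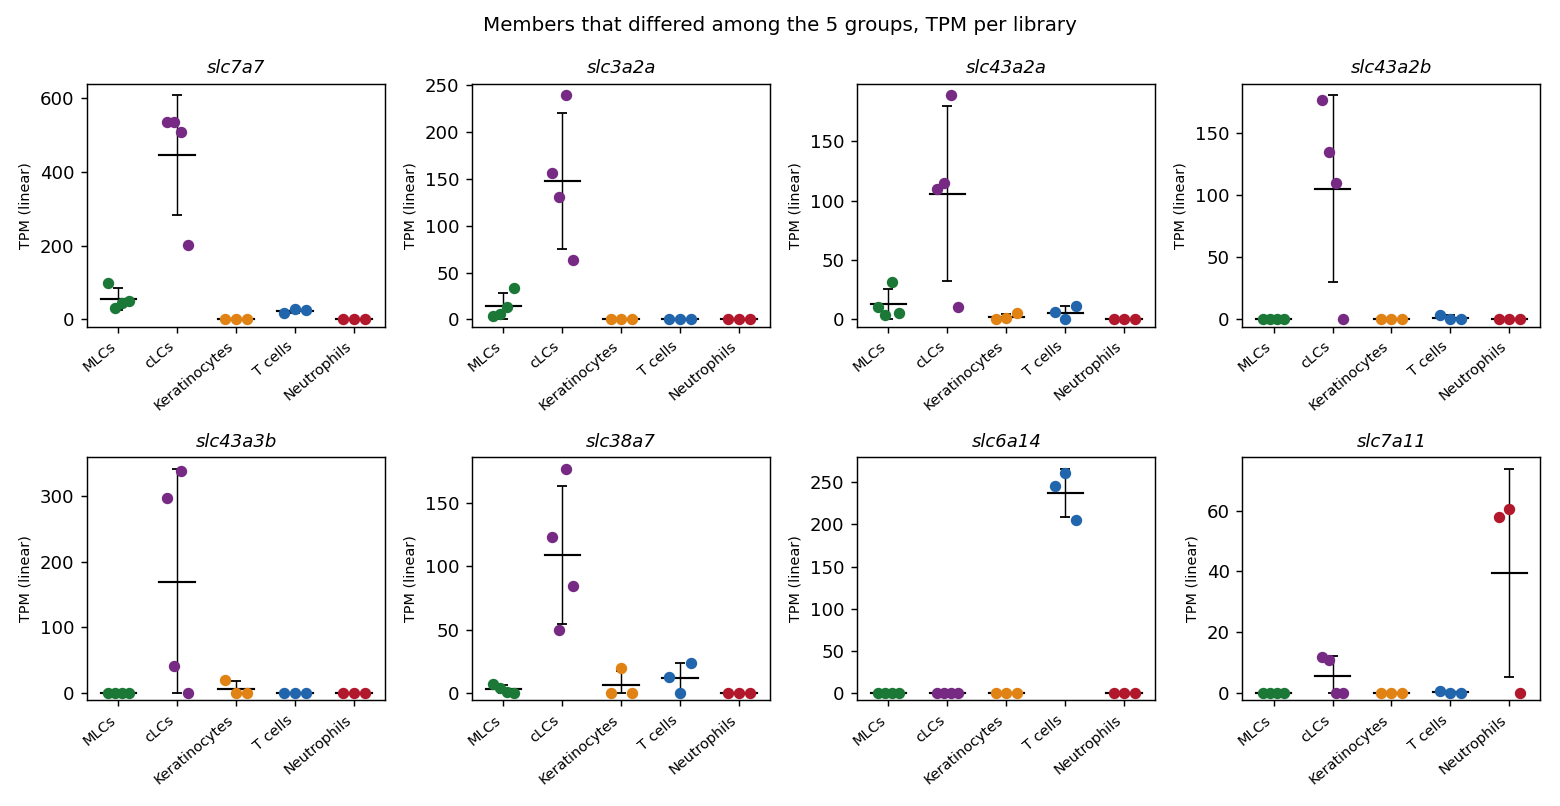
TPM (linear axes, each gene on its own scale) of the 8 members that differed among the 5 groups. Points are libraries, horizontal lines are group means and error bars are 1 SD (n = 3 or 4), with the lower bar stopped at 0. The slc7a7 points are separate between MLCs (30.1 to 97.4), cLCs (202 to 535) and T cells (18.3 to 28.7), and slc6a14 has points above 0 in T cells alone.

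The SLC38 family carries glutamine and other neutral amino acids with sodium. Its lysosomal member slc38a7 (SNAT7 in mammals, which exports glutamine from the lysosome; ENSDARG00000012002) was at 7.01, 4.32, 0.941 and 0 TPM in MLCs and 123, 50.1, 177 and 84.4 TPM in cLCs. It was at 12.9, 0 and 23.8 TPM in T cells, 0 TPM in all neutrophil libraries and 0, 19.6 and 0 TPM in keratinocytes. Every cLC library lay above every other library, the 2 cLC libraries with few genes included. The 5-group test gave an edgeR adjusted p of 0.0486. The call was lost in 13 of the 17 fits that left out 1 library, with adjusted p between 0.0514 and 0.0936, and held without T cells 2 or keratinocytes 1, 2 or 3.

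The lysosomal carriers slc38a9 and slc36a1 and the related slc36a4 had overlapping groups. The arginine-sensing slc38a9 ranged over 0 to 33.6 TPM with its highest value in T cells 1 (edgeR adjusted p = 0.709). The proton-coupled slc36a1 was at 10.8, 13.3, 40.2 and 19.8 TPM in MLCs and 37.9, 37.5, 44.3 and 8.17 TPM in cLCs, overlapping with keratinocytes at 9.505, 30.8 and 10.9 TPM (edgeR adjusted p = 0.775). The related slc36a4 was found in 15 of the 17 libraries and never exceeded 14.1 TPM.

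The system N glutamine carrier slc38a5b was found mainly in keratinocytes. Its level was at most 1.33 TPM in MLCs, 1.0997 TPM in cLCs, 7.65 TPM in T cells and 7.14 TPM in neutrophils, against 123, 74.2 and 59.7 TPM in keratinocytes. All keratinocyte libraries lay above all others, and the 5-group test gave an edgeR adjusted p of 0.0725 with TMM scaling and 0.0469 with RLE size factors. Its paralogue slc38a5a was at 92.5, 50.5, 69.8 and 11.5 TPM in MLCs and 12.97, 0.364, 0 and 0 TPM in cLCs. It was at 28.4, 16.2 and 36.7 TPM in T cells, 17.02, 36.999 and 6.06 TPM in neutrophils and 157, 147 and 78.1 TPM in keratinocytes. MLCs and keratinocytes thus overlapped for slc38a5a and not for slc38a5b.

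The system A carrier slc38a2 was at 107, 51.7, 20.3 and 23.5 TPM in MLCs, 78.0, 26.2, 83.9 and 0 TPM in cLCs, 169, 80.4 and 107 TPM in T cells and 138, 49.0 and 66.4 TPM in neutrophils. In keratinocytes it was at 0.0913, 4.53 and 1.29 TPM, below every library of the other groups except cLCs 4. The 5-group difference did not pass edgeR's test (adjusted p = 0.338). The sparsely annotated slc38a6 was at 54.1, 14.2, 34.5 and 22.8 TPM in MLCs and 148, 65.7, 185 and 0 TPM in cLCs. Outside those groups it was at 13.5 and 1.17 TPM in keratinocytes 1 and 3, at 27.4 TPM in T cells 1 and at 0 TPM in the other 6 libraries.

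In the SLC6 family the broad sodium- and chloride-coupled carrier slc6a14 (ATB0,+ in mammals, which takes up neutral and cationic amino acids; ENSDARG00000029866) was found in T cells alone. Its level was 245, 261 and 205 TPM in T cells, and it had 0 counts in the other 14 libraries. The 5-group test gave an edgeR adjusted p of 0.00105. The other SLC6 members were shared more widely. The gene slc6a7, whose mammalian counterpart is the neuronal proline carrier, was at 57.5, 49.9, 66.7 and 35.9 TPM in MLCs and 4.13, 0.618, 0 and 14.2 TPM in cLCs, against 57.6, 24.8 and 17.8 TPM in keratinocytes. Its T cell range of 37.2 to 84.9 TPM and neutrophil range of 25.5 to 69.4 TPM overlapped with that of MLCs. The taurine carrier slc6a6b had a count in 15 of the 17 libraries, at up to 66.0 TPM in MLCs 3.

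In the SLC1 family the glutamate carrier slc1a3a (the EAAT1 gene, known in mammals from astroglia) was at most 4.04 TPM in MLCs and at 47.7, 0.0421, 0 and 0 TPM in cLCs. It was at most 0.782 TPM in T cells, at 14.1, 43.4 and 145 TPM in neutrophils and at most 0.120 TPM in keratinocytes. The overlap between neutrophils and cLCs came from cLCs 1, and the 5-group test was not passed (edgeR adjusted p = 0.173). The neutral amino acid exchanger slc1a5 was at 14.1, 8.03, 4.35 and 4.86 TPM in MLCs, at most 17.2 TPM in cLCs, at 36.5, 13.9 and 37.5 TPM in T cells and at most 9.54 TPM in neutrophils and 9.46 TPM in keratinocytes (edgeR adjusted p = 1).

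Some tested members never exceeded 15.95 TPM in a library, among them slc1a4, slc6a6a, slc6a9, slc6a15, slc1a2a and slc7a10a. The gene next to slc7a6, slc7a6os, which encodes no transporter, was at 22.5, 10.6, 50.2 and 1.25 TPM in MLCs and 69.2, 48.8 and 47.4 TPM in T cells (edgeR adjusted p = 0.977 among the 5 groups). Other tested members without a 5-group call were slc6a22.1, slc7a4, slc6a16b and slc38a10, with maxima of 45.2 TPM in T cells 1, 40.3 TPM in MLCs 4, 37.0 TPM in T cells 1 and 34.5 TPM in Neutrophils 3. The 35 counted members that did not pass the filter had a count in 1 to 6 libraries each, and 19 of them never reached 1 TPM. Their highest values were 12.4 TPM for the creatine carrier slc6a8 in keratinocytes 1 and 9.51 TPM for the glutamate carrier slc1a1 in T cells 2. Maxima were 0.0948 TPM for slc1a2b, 0.609 TPM for slc38a3b and 0.0446 TPM for the identifier with the symbol slc7a1. The heavy chain slc3a1 reached 4.75 TPM in Neutrophils 3.

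MLCs were then set against each other cell type. Between MLCs and cLCs, edgeR called 0 of the 38 members higher and 0 lower in MLCs at an adjusted p under 0.05, beside 0.0131% of all tested genes higher and 0.157% lower. At an unadjusted p under 0.05, 4 members were higher and 5 lower, which is 23.7% of the members beside 12.8% of all tested genes. The split of all tested genes by direction at that threshold was not computed in this or the later comparisons. The directions of the members therefore have no background there. DESeq2 called 2 members higher and 3 lower (7.09% of all genes), and limma on log2(TPM + 1), in which 35 members were tested, called 3 higher and 6 lower (8.40% of all genes). The median log2 fold change was 0.25 over the tested members and 0.13 over all tested genes. The MLC and cLC libraries did not overlap in TPM for 5 tested members. The share of all tested genes without such overlap was not computed, so this count has no background beside it. All MLC libraries lay above all cLC libraries for slc6a7, with a log2 fold change of 4.01 (SE 1.46, edgeR adjusted p = 0.274), and below them for slc7a7, slc3a2a, slc38a7 and slc7a8a. Among those 4, the slc38a7 difference was -4.78 (SE 2.38, adjusted p = 0.412) and the slc3a2a difference was -3.27 (SE 1.49, adjusted p = 0.36), by edgeR. Because cLCs 4 was at 0, the groups overlapped for slc43a2b and slc43a3b. Against a floor of 3 counts over the group, the MLC mean of slc43a2b was at least 5508-fold below the cLC mean (edgeR adjusted p = 0.124). That bound leaves out the spread between the cLC libraries. The log2 fold change of slc43a3b was -11.73 (SE 3.35, edgeR adjusted p = 0.189).

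Against keratinocytes, 2 members were higher and 0 lower in MLCs, beside 1.44% of all tested genes higher and 0.472% lower (edgeR). At an unadjusted p under 0.05, 7 were higher and 2 lower, which is 23.7% of the members beside 18.1% of all genes. DESeq2 called 6 higher and 1 lower (13.6% of all genes) and limma called 3 higher and 2 lower (12.6%). The median log2 fold change was 0.80 over the tested members and 0.30 over all tested genes. The called pair were slc7a7 and slc3a2a, a light chain and a heavy chain. Scaled counts of slc7a7 averaged 93.9 ± 47.7 CPM (reads scaled by library size, not by gene length) in MLCs and 0 CPM in keratinocytes (SD, n = 4 and 3). Against a floor of 3 counts over the group, it was at least 1163-fold higher in MLCs (edgeR adjusted p = 0.000884). That bound leaves out the spread between libraries. Scaled counts of slc3a2a averaged 35.3 ± 34.6 CPM in MLCs and 0.0342 ± 0.0592 CPM in keratinocytes, a log2 fold change of 9.46 (SE 2.30, edgeR adjusted p = 0.0344). The slc3a2a call was lost when any 1 of 8 libraries was left out (MLCs 2, 3 or 4, cLCs 1 or 2, or keratinocytes 1, 2 or 3), with adjusted p between 0.0585 and 0.178, while its log2 fold change stayed between 8.69 and 12.09.

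Against T cells, 0 members were higher and 1 lower in MLCs, beside 0.774% of all tested genes higher and 0.433% lower (edgeR). At an unadjusted p under 0.05, 2 were higher and 2 lower, which is 10.5% of the members beside 15.1% of all genes. DESeq2 called 2 higher and 2 lower (9.41% of all genes) and limma called 1 higher and 3 lower (13.8%). The median log2 fold change was -0.46 over the tested members and -0.09 over all tested genes. The called member was slc6a14, with 0 CPM in MLCs and 197 ± 28.3 CPM in T cells (SD, n = 4 and 3). It was at least 3316-fold lower in MLCs (edgeR adjusted p = 0.0328), by a floor of 3 counts that leaves out the spread between libraries. The call was lost without any 1 of the 4 MLC or 3 T cell libraries (adjusted p between 0.0782 and 0.127), although no MLC library had a count. Without cLCs 4 or Neutrophils 3 the count of called members was 2, the added one being slc3a2a. Its log2 fold change with all libraries was 8.13 (SE 2.14, edgeR adjusted p = 0.0692).

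Against neutrophils, 3 members were higher and 0 lower in MLCs, beside 1.53% of all tested genes higher and 0.367% lower (edgeR). At an unadjusted p under 0.05, 11 were higher and 1 lower, which is 31.6% of the members beside 24.5% of all genes. DESeq2 called 10 higher and 1 lower (17.8% of all genes) and limma called 2 higher and 2 lower (8.91%). The median log2 fold change was 1.94 over the tested members and 1.08 over all tested genes. The 3 members had 0 counts in every neutrophil library. Each fold is therefore a bound against 3 counts over that group, which leaves out the spread between libraries. The 3 members were slc7a7 (at least 1986-fold higher in MLCs, adjusted p = 0.00212), slc43a2a (at least 1022-fold, 0.0266) and slc3a2a (at least 747-fold, 0.0162), all by edgeR. Only the slc7a7 call held without Neutrophils 2 or Neutrophils 3, since slc3a2a then had an adjusted p of 0.0596 to 0.0754. The slc43a2a call was lost without any 1 neutrophil library (0.0669 to 0.104) and under limma with a pseudocount of 1 (0.0717). Without the 4 libraries with fewer than 6000 genes, Neutrophils 1 stands alone for its group, so no adjusted p is given for that fit.

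Between cLCs and keratinocytes, 2 members were higher and 0 lower in cLCs, beside 2.02% of all tested genes higher and 1.35% lower (edgeR). At an unadjusted p under 0.05, 10 were higher and 6 lower, which is 42.1% of the members beside 21.8% of all genes. DESeq2 called 9 higher and 4 lower (17.9% of all genes) and limma called 6 higher and 5 lower (14.1%). As in the comparison of MLCs with the same keratinocyte libraries, the called pair were slc7a7 and slc3a2a. Scaled counts of slc7a7 averaged 794 ± 614 CPM in cLCs and 0 CPM in keratinocytes (SD, n = 4 and 3). It was at least 9826-fold higher in cLCs (edgeR adjusted p = 0.000285), by a floor of 3 counts that leaves out the spread between libraries. Scaled counts of slc3a2a averaged 340 ± 198 CPM in cLCs and 0.0342 ± 0.0592 CPM in keratinocytes (log2 fold change 12.73, SE 2.57, edgeR adjusted p = 0.00827). The slc3a2a call was lost without keratinocytes 2 or keratinocytes 3 (0.0522 to 0.0567). The median log2 fold change was 1.14 over the tested members and 0.26 over all tested genes.

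Between T cells and neutrophils, 1 member was higher and 0 lower in T cells, beside 0.105% of all tested genes higher and 0% lower (edgeR). At an unadjusted p under 0.05, 14 members were higher and 0 lower, which is 36.8% of the members beside 19.8% of all genes. How all genes divided by direction at that threshold was not computed, and their median also leaned to T cells. The split of 14 to 0 is therefore not read as a result about the members. DESeq2 called 11 higher and 1 lower (13.3% of all genes) and limma called 3 higher and 1 lower (11.7%). The median log2 fold change was 2.42 over the tested members and 0.87 over all tested genes. The called member was slc7a7, with 23.6 ± 3.88 CPM in T cells and 0 CPM in neutrophils (SD, n = 3 each). It was at least 499-fold higher in T cells (edgeR adjusted p = 0.0136), by a floor of 3 counts that leaves out the spread between libraries. The call was lost without Neutrophils 2 or Neutrophils 3 (0.0581 to 0.105) and in a fit of the T cell and neutrophil libraries alone (0.111). For slc6a14, at 0 in neutrophils, the edgeR adjusted p was 0.151 in this comparison.

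Genes outside the transporter families that handle or sense amino acids were taken from 3 lists of 92 genes, of which 88 were in the tables and 69 were tested. In the 5-group test edgeR called 4 of 12 tested genes among other amino acid and peptide carriers, 2 of 27 among amino acid response and sensing genes and 2 of 30 among amino acid and glutathione metabolism genes, beside 16.0% of all tested genes. The counts of the response and metabolism lists lay below that share. The 4 carriers had their highest means in cLCs. The aromatic amino acid carrier slc16a10 was at most 0.836 TPM in MLCs, at 77.1, 96.5, 62.3 and 48.0 TPM in cLCs and at most 1.34 TPM in T cells, and was at 0 in keratinocytes and neutrophils (edgeR adjusted p = 0.00555). The lysosomal histidine and peptide carrier slc15a4 was at 79.4, 94.1, 84.5 and 52.4 TPM in MLCs and 300, 398, 669 and 426 TPM in cLCs, and reached at most 49.3 TPM in any other library (edgeR adjusted p = 0.0282). The MLC range thus lay between cLCs and the other groups, in the same order as for slc7a7. The slc15a4 call was lost without cLCs 2 or without any 1 T cell library (0.0548 to 0.0973). The peptide carrier slc15a2 (edgeR adjusted p = 0.0103) was at 11.96, 20.1, 59.2 and 0 TPM in cLCs. The mitochondrial glutamate carrier slc25a22a (edgeR adjusted p = 0.018, or 0.0514 without cLCs 4) was at 20.7, 25.3, 91.7 and 303 TPM in cLCs.

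Among metabolic genes, odc1, which encodes the ornithine decarboxylase that starts polyamine synthesis, had the lowest adjusted p in the 5-group test (6.63e-05 by edgeR). Its level was 60.0, 57.5, 61.8 and 31.7 TPM in MLCs and 132, 320, 288 and 204 TPM in cLCs. It was 886, 455 and 545 TPM in T cells, 1579, 4021 and 556 TPM in neutrophils and 0 TPM in all keratinocyte libraries. It was higher than in keratinocytes in MLCs (edgeR adjusted p = 0.00014) and in cLCs (7.65e-05). It was lower in MLCs than in neutrophils, with a log2 fold change of -4.61 (edgeR adjusted p = 0.0211), a call lost without Neutrophils 2 or any 1 MLC library (0.0534 to 0.12).

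The mitochondrial alanine aminotransferase gene gpt2 was at 40.3, 34.9, 41.6 and 35.5 TPM in MLCs, 28.7, 22.8, 88.1 and 0 TPM in cLCs, at most 19.5 TPM in T cells and 2.02 TPM in neutrophils, and 0 TPM in keratinocytes (edgeR adjusted p = 0.0335 among the 5 groups). It was higher in cLCs than in keratinocytes (edgeR adjusted p = 0.0398), and MLCs against keratinocytes gave 0.0504, just past the threshold. Leaving out 1 library ended the 5-group call in 8 cases (0.0505 to 0.069), namely MLCs 1 to 3, cLCs 1 and 2 and keratinocytes 1 to 3. It ended the cLC call in 10 cases (0.0503 to 0.136), namely any MLC or keratinocyte library and cLCs 1 to 3, and a fit of the cLC and keratinocyte libraries alone gave 0.072.

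Among the response genes, tfeb, a regulator of lysosomal genes, was at 18.6, 8.03, 12.8 and 19.5 TPM in MLCs and 71.4, 22.7, 134 and 1.41 TPM in cLCs. It was at most 5.41 TPM in neutrophils, 0.364 TPM in T cells and 0.0274 TPM in keratinocytes (edgeR adjusted p = 0.0159). It was higher in cLCs than in keratinocytes (edgeR adjusted p = 0.0407), and MLCs against keratinocytes gave 0.0886. The cLC call was lost without MLCs 1, 2 or 4, cLCs 1, 2 or 3 or any keratinocyte library (0.0532 to 0.147). The glutathione-degrading chac1, a target of the ATF4 stress response in mammals, was at 505, 250, 174 and 150 TPM in MLCs and 421, 171, 0.388 and 220 TPM in cLCs. It was at 548, 646 and 686 TPM in T cells, 398, 662 and 260 TPM in neutrophils and 1793, 2729 and 4207 TPM in keratinocytes (edgeR adjusted p = 0.0389). The chac1 call was lost without MLCs 2 to 4, cLCs 2 or 4, keratinocytes 2 or 3 or any T cell library (0.0516 to 0.163), and under limma with a pseudocount of 0.1 (0.0849).

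Over the 69 tested list genes together, edgeR called 0 between MLCs and cLCs, beside 0.171% of all tested genes. At an unadjusted p under 0.05 there were 6, beside 12.8% of all tested genes. DESeq2 called 3 (7.09% of all genes) and limma called 4 (8.40%), with every DESeq2 and limma call lower in MLCs. Between MLCs and T cells edgeR called 0, beside 1.21% of all tested genes. At an unadjusted p under 0.05 there were 5, beside 15.1% of all tested genes. DESeq2 called 2 higher and 1 lower (9.41% of all genes) and limma called 1 higher and 5 lower (13.8%). Between T cells and neutrophils edgeR called 0, beside 0.105% of all tested genes. At an unadjusted p under 0.05 there were 7, beside 19.8% of all tested genes. DESeq2 called 4 higher and 1 lower (13.3% of all genes) and limma called 5 higher and 1 lower (11.7%). The edgeR calls in the other 3 comparisons were the odc1, gpt2 and tfeb calls given above. Between MLCs and keratinocytes, DESeq2 called 7 higher and 4 lower (13.6% of all genes) and limma 4 higher and 3 lower (12.6%). Between MLCs and neutrophils, DESeq2 called 8 higher and 2 lower (17.8%) and limma 2 higher and 1 lower (8.91%). Between cLCs and keratinocytes, DESeq2 called 11 higher and 4 lower (17.9%) and limma 8 higher and 7 lower (14.1%).

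**Figure D5:**
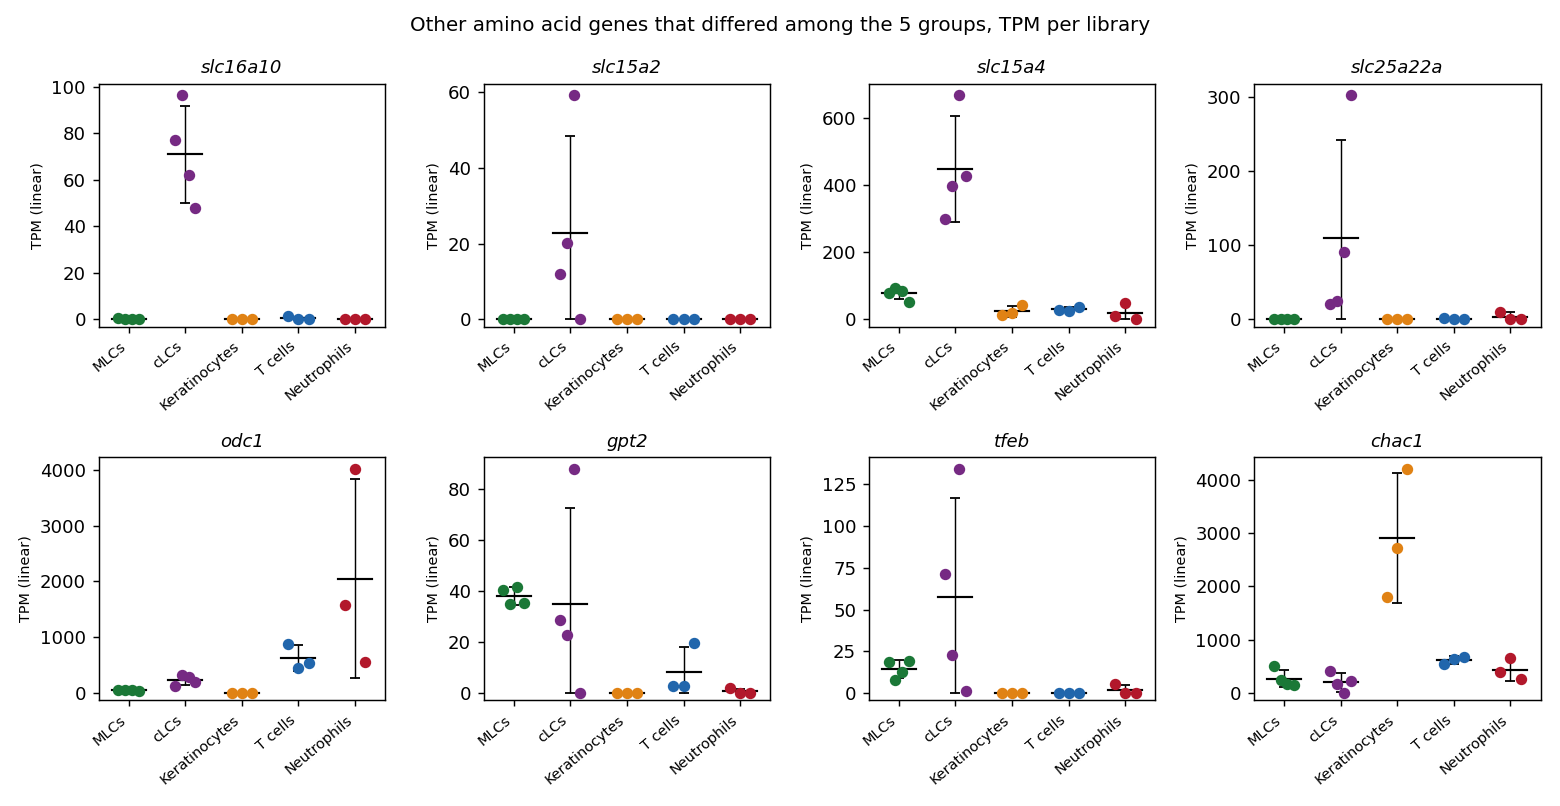
TPM (linear axes, each gene on its own scale) of the 8 list genes outside the transporter families that differed among the 5 groups. Points are libraries, horizontal lines are group means and error bars are 1 SD (n = 3 or 4), with the lower bar stopped at 0. The slc16a10 points above 1.34 TPM are all cLC libraries, and odc1 is at 0 in the 3 keratinocyte libraries.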

How the data were processed

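RNA of hand-picked cells was amplified by SMART-seq2, per the labels. The authors deposited raw counts per gene and TPM for 17 libraries. STAR, featureCounts and danRer10 are named in the submitters' processing notes, with no version, and strand handling was not given in the sources used here. Of 35572 table lines, 455 repeated a gene identifier and 35117 identifiers were kept. The tests used edgeR 4.0.16 on those counts, under R 4.3.3 (TMM scaling, filterByExpr by group, quasi-likelihood F test over all 17 libraries, 15247 genes, Benjamini-Hochberg adjustment), for 5 groups and 6 contrasts. The common biological coefficient of variation was 2.03. Alternatives used DESeq2 1.42.0 and limma 3.58.1. Folds against a group at 0 used a floor of 3 counts over the group, which covers counting error only and not the spread between libraries. The SE of a log2 fold change was worked back as its size divided by the square root of the F statistic, so it is approximate. TPM, scaled by gene length, served for levels. A gene was called at an adjusted p under 0.05. Members, gene lists and the named genes were chosen with earlier results of these data known: the genes named are those called, the 10 highest by level and a set of textbook carriers, and other members were chosen after their values were seen. No sequences or genome positions were used.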

Additional observations from a re-analysis of the deposited data

Results flagged for a closer look

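In 4 of the 24 combinations of a called or abundant member and a group of 4 libraries that were examined, the highest or lowest library stood apart from the other 3 by Dixon's test. The test's rate of about 1 in 20 holds for normally distributed values. TPM with many values at 0 is not such a case, so 4 of 24 is not read as an excess. The level of slc7a7 in cLCs 4 was low, at 202 TPM, beside 509 to 535 TPM in the other 3 cLC libraries. In MLCs 1, slc43a3b was at 0.207 TPM beside 0 TPM in the other 3 MLC libraries, a level that stands apart only because the others are at 0. In cLCs 1, slc38a5a was at 12.97 TPM and slc7a3a at 13.8 TPM, each beside values of at most 0.364 TPM in the other 3 cLC libraries. The library cLCs 4 detected 4484 genes, the fewest of all, and cLCs 1 detected 16200.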

How the results depend on the processing

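Counts of called members were recomputed under other settings. In the contrasts in which a named gene was called, no direction turned round. Except for odc1 in MLCs against neutrophils, 1 of the groups was at or near 0 in each of them. A reversal could therefore hardly occur, and its absence is not read as support. The test over 5 groups has no direction, so genes called only there were not checked in this way. Values follow the order 5 groups, MLCs against cLCs, against keratinocytes, against neutrophils and against T cells, cLCs against keratinocytes, and T cells against neutrophils, for which the main counts were 8, 0, 2, 3, 1, 2 and 1. DESeq2 gave 7, 5, 7, 11, 4, 13 and 12. With no filter on low counts, under which all 73 counted members were tested in place of 38, the counts were 19, 3, 3, 6, 3, 6 and 4. limma on log2(TPM + 1) gave 18, 9, 5, 4, 4, 11 and 4, and with a pseudocount of 0.1 it gave 15, 5, 4, 4, 3, 11 and 4. In the 5-group test DESeq2 called 18.3% of all tested genes, beside 16.0% in the main fit. limma with a pseudocount of 1, in which 35 members were tested, called 31.4% of all tested genes. The contrast shares of both are given above. Counts under the other settings have no such share beside them, so a higher count is not read as a result about the members. A filter of at least 10 CPM in 3 libraries gave 2 for MLCs against T cells. Fits of only the groups compared gave 2 for MLCs against T cells, 4 for cLCs against keratinocytes and 0 for T cells against neutrophils. Leaving out the 4 libraries with fewer than 6000 genes, a choice made after seeing the data, left Neutrophils 1 alone in its group. Counts from that fit are not given. Leaving out 1 library at a time gave 6 to 9, 0 to 0, 1 to 2, 1 to 4, 0 to 2, 1 to 3 and 0 to 1. The cause of these shifts was not tested.

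For the 5-group calls of the response, carrier and metabolism lists (2, 4 and 2), RLE size factors gave 4 response genes. DESeq2 gave 5 response and 5 metabolism genes. No filter, under which more list genes were tested, gave 4 and 6. The limma fits gave 7 and 10 (pseudocount 1) or 5 and 7 (pseudocount 0.1). Beside these, DESeq2 called 18.3% and limma (pseudocount 1) 31.4% of all tested genes. Leaving out 1 library gave 1 to 5, 2 to 5 and 1 to 4.

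Replicate numbers recur across groups. Of 31 same-numbered pairs, 2 had deviations correlated above 0.1 (range -0.04 to 0.18), and 7 of 17 libraries correlated best with their own number. Those 2 pairs were MLCs 1 with cLCs 1 (0.176) and MLCs 2 with cLCs 2 (0.105). MLCs 3 with cLCs 3 was at 0.03 and MLCs 4 with cLCs 4 at 0.04. Differently numbered MLC and cLC pairs were at -0.10 to 0.05. The numbers were not taken as pairing in the main fits, and pairing of MLCs with cLCs alone was not tested. A fit with the replicate number as a block called 14 members among the 5 groups, 2 between MLCs and cLCs, 5 between MLCs and neutrophils, 2 between MLCs and T cells, 8 between cLCs and keratinocytes, 4 between T cells and neutrophils, and 7 metabolism genes. The share of all genes called in the block fit is not set beside these counts. They are therefore not read as a result about the members. Over all tested genes, the median log2 fold change of cLCs against keratinocytes was 0.26 with TMM and 0 with RLE scaling, and that of MLCs against keratinocytes was 0.30 and 0.08. The spread between libraries of a group limits what could be called, and zeros in libraries with few detected genes limit what can be read from absence.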

Other observations

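A gene identifier that carried no symbol in the deposited tables, ENSDARG00000100227, has the name SLC7A1 (the CAT1 cationic amino acid carrier) in the gene name table and so lay outside the symbol rule. Its level was 8.32, 3.42, 11.04 and 0 TPM in MLCs and 3.98, 0.0976, 0 and 0 TPM in cLCs, and it was at most 1.70 TPM in T cells, 3.83 TPM in neutrophils and 0 TPM in keratinocytes. A further identifier without a symbol, ENSDARG00000067567 (SLC6A13 in the name table), was at 0 in all 17 libraries.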
